A study of Mus musculus with 2 samples.

Results

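Matrix metalloproteinases (Mmp genes), the membrane-bound ADAM proteases, the secreted ADAMTS proteases with their ADAMTS-like relatives, and the inhibitors encoded by the Timp genes and Reck were followed in the mouse mammary gland. Members were the rows whose symbol is Mmp, Adam or Timp followed by a digit, starts with Adamts, or is Reck. This gave 84 of 21113 genes: 23 Mmp, 32 Adam, 24 Adamts and Adamtsl, and 5 inhibitor genes. The first of 2 libraries came from a C57BL/6 mammary gland sample with the Mir212/132ILN/ILN genotype, called ILN/ILN here. In it an IRES-LacZ-Neo (ILN) cassette is inserted where the microRNAs miR-212 and miR-132 are encoded. The other came from a wild-type (WT) C57BL/6 mammary gland. Both glands were taken at postnatal week 6, and whole-gland polyadenylated RNA was sequenced. The sources used here do not give how many animals contributed to a library.

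Each genotype had 1 library, so the differences below have no replicate check and no test was possible. Levels are the authors' FPKM-like values, scaled for gene length and library size, with the fragments assigned to a gene given beside them. Ratios of fragments are ILN/ILN over WT, scaled by library totals, with exact conditional 95% intervals in parentheses. These intervals cover counting error alone, not differences between animals or dissections. A gene was counted as measured when its value was at least 1 in either library. It was called lower or higher when the ratio of (value + 1) was at least 1.5-fold, a scale that understates differences of low genes.

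Metalloproteinases of the MMP family are secreted or anchored at the cell surface as inactive precursors and, once activated, cut collagens and other matrix proteins. In the pubertal mammary gland they act in the stroma around the elongating ducts. ADAM proteases release the outer parts of membrane proteins such as growth factors, whereas ADAMTS proteases cut matrix proteoglycans and trim procollagens. TIMP proteins bind and block active metalloproteinases, and RECK is an inhibitor anchored to the cell surface. The gelatinase gene Mmp9 has been reported as a target of miR-212 and miR-132 in mammary stroma.

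The libraries held 42953129 (ILN/ILN) and 46133338 (WT) fragments assigned to genes. Transcripts of Mir212 and Mir132 were not analysed here and cannot check the genotype labels. Of the measured members, 10 share exon bases with a gene on the opposite strand in GRCm38: Adam8, Adam15, Adam17, Adam19, Adamts9, Mmp11, Mmp19, Mmp28, Timp3 and Timp4. The sources used here do not say whether fragments were counted by strand, so the values of these 10 are less certain. Markers of luminal epithelium, which should be present in a mammary gland, were nearly absent from the ILN/ILN library: 8 of the 9 listed genes had a row, and these summed to 0.752 in ILN/ILN and 40.0 in WT, with Krt8, Cldn7 and Elf5 at 0 in ILN/ILN. The 7 basal and myoepithelial markers summed to 54.6 in ILN/ILN and 70.1 in WT, with 5 lower and 2 higher (Oxtr and Mylk). Among them, the keratin genes Krt5, Krt14 and Krt17 had 0 fragments in ILN/ILN, against 78, 62 and 59 in WT. Neutrophil markers summed to 72.3 in ILN/ILN and 337 in WT, and macrophage markers to 1291 in ILN/ILN and 1975 in WT, each with all 8 genes that had a row (of 9 listed) lower. B cell markers summed to 34.2 in ILN/ILN and 182 in WT, and T cell markers to 20.0 in ILN/ILN and 57.8 in WT, with all 6 lower in each list. The 6 fibroblast markers summed to 2279 in ILN/ILN and 2123 in WT, with 5 higher, and the 5 endothelial markers to 136 in ILN/ILN and 114 in WT. In bulk tissue, fewer cells of a type and less RNA per cell cannot be told apart.

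**Figure D1:**
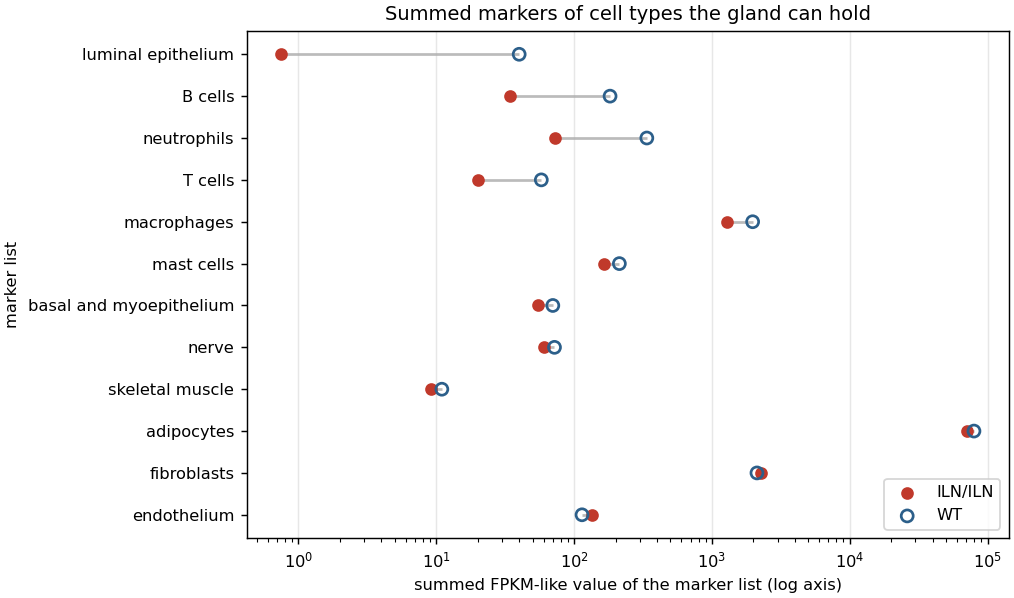
Summed FPKM-like value (log axis) of each marker list in the ILN/ILN library (filled red) and the WT library (open blue), 1 library per genotype. Luminal epithelial markers were at 0.752 in ILN/ILN and 40.0 in WT, while fibroblast markers were at 2279 in ILN/ILN and 2123 in WT.

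The mature 3p strands of the microRNAs at the insertion are shown because their seed, bases 2 to 8 in capitals, defines which transcripts they can pair with. Both 3p strands share the seed AACAGUC, and the RefSeq table places them on the plus strand of GRCm38.p6, miR-212-3p at chr11:75173443-75173464 and miR-132-3p at chr11:75173723-75173744.
mmu-miR-212-3p: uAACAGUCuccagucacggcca
mmu-miR-132-3p: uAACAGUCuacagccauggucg

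The 7 bases complementary to that seed, GACTGTT on the transcript strand, were searched in 3′ untranslated regions of the GRCm38 annotation, taking the longest one per gene. The letters were found in 5 of the 37 measured members (13.5%), against 13.2% of 11326 measured genes that could be searched. The median region was 1783 bases long in measured members and 1301 in measured genes. The 5 sites are shown with the complementary bases in capitals. Of their genes, 3 were called lower in ILN/ILN, where 5.39% of all measured genes were. Adamts1 and Adamts5 stood above WT without being called.
Mmp9: tcttgttgGACTGTTtctaataa
Mmp14: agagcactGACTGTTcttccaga
Adamts15: ctactctaGACTGTTattctaac
Adamts1: gagaatatGACTGTTtccatatg
Adamts5: acttaaaaGACTGTTtccacacc
In GRCm38 the capitals lie at chr2:164955095-164955101 (plus strand, Mmp9), chr14:54445222-54445228 (plus, Mmp14), chr9:30900143-30900149 (minus, Adamts15), chr16:85794427-85794433 (minus, Adamts1) and chr16:85861364-85861370 (minus, Adamts5). Only the Adamts15 site is followed by the A that extends such a match to 8 bases. On the log2(value + 1) scale the differences were -0.60 for Mmp9, -0.86 for Mmp14, -0.89 for Adamts15, 0.27 for Adamts1 and 0.31 for Adamts5, so genes with the match lay on both sides of 0. The median difference was -0.60 in measured members with the match and -0.03 in those without it. Over all measured genes that could be searched, it was 0.05 with the match and 0.01 without it. A match of letters is a description of the sequence, and pairing was not measured.

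Of the 84 members, 37 were measured, 18 had no fragment in either library, and the other 29 had fragments but stayed under a value of 1. Among the 37, 6 were called lower in ILN/ILN, where 5.39% of all 11556 measured genes were, and 2 were called higher, where 1.90% of all measured genes were. As shares of the measured members these are 16.2% and 5.41%. The lower genes were Mmp3, Mmp14, Mmp9, Timp1, Adamts15 and Adam23, and the higher ones Mmp27 and Adam11. The difference of Adam11 did not stand in its fragments, as described below. The median log2 ratio was -0.04 for measured members and 0.02 for all measured genes, so the medians lay close together. Adam23 alone passed 2-fold on the lower side, where 1.72% of measured genes did, and no member on the higher side, where 0.407% did. Mmp9, at -0.60, lay just past the threshold, and Mmp28 at 0.54 and Adam19 at -0.50 just short of it.

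**Figure D2:**
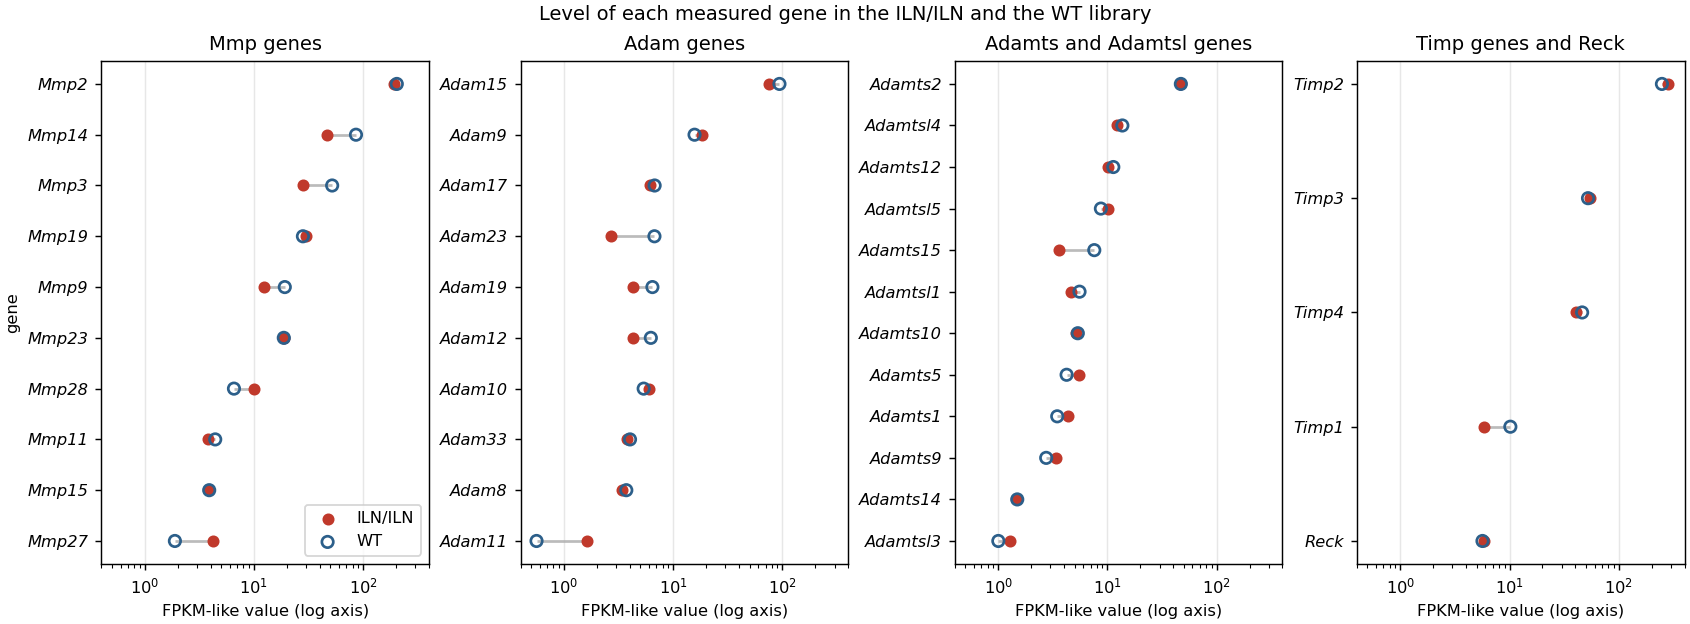
FPKM-like value (log axis) of the 37 measured genes, by family, in the ILN/ILN library (filled red) and the WT library (open blue), 1 library per genotype. The widest gaps with ILN/ILN lower are at Adam23 (2.67 in ILN/ILN and 6.73 in WT), Adamts15, Mmp3 and Mmp14, and Mmp27 stood higher in ILN/ILN (4.20, against 1.89 in WT). The Adam11 gap comes from an estimate that its fragments did not show.

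The gelatinase gene Mmp2, whose product degrades denatured collagen and basement membrane collagen, was the most abundant metalloproteinase transcript. It was at 190.7 in ILN/ILN and 203 in WT, with 25814 fragments in ILN/ILN and 29523 in WT, a ratio of 0.939 (0.924 to 0.955). It made up 54.4% of the summed Mmp level in ILN/ILN and 47.7% in WT. Mmp9, the other gelatinase gene, is abundant in neutrophils and macrophages. It was at 12.3 in ILN/ILN and 19.1 in WT, with 1730 fragments in ILN/ILN and 2892 in WT, a ratio of 0.642 (0.605 to 0.682). Both gelatinases were thus lower in the ILN/ILN library, Mmp2 slightly and Mmp9 past the threshold. Neutrophil markers (72.3 in ILN/ILN, 337 in WT) and macrophage markers (1291 in ILN/ILN, 1975 in WT) lay in the same direction, and their part in the Mmp9 difference was not tested.

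Mmp14 encodes a membrane-anchored collagenase that activates the MMP2 precursor at the cell surface. It was at 46.9 in ILN/ILN and 85.9 in WT, with 5344 fragments in ILN/ILN and 10520 in WT, a ratio of 0.546 (0.528 to 0.564). Mmp15, a membrane-type relative, was at 3.91 in ILN/ILN and 3.89 in WT, with 754 fragments in ILN/ILN and 807 in WT and a ratio interval of 0.907 to 1.11, and the sign of its small difference turned with either other scaling of the libraries. The membrane-type genes therefore differed from each other, with Mmp14 far more abundant and lower in ILN/ILN. Mmp17, whose product is held by a lipid anchor, had 116 fragments in ILN/ILN and 112 in WT. Mmp25, a membrane-type gene known from neutrophils, had 73 fragments in ILN/ILN and 83 in WT, a ratio of 0.945 (0.680 to 1.31), in contrast to the neutrophil marker sums above. Mmp16 and Mmp24 had at most 12 fragments in a library. The level of Mmp2 relative to Mmp14 was 4.07 in ILN/ILN and 2.36 in WT.

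The stromelysin gene Mmp3 encodes an enzyme that cuts proteoglycans and basement membrane proteins and has been studied in side branching of mammary ducts. It was at 28.1 in ILN/ILN and 52.0 in WT, with 2182 fragments in ILN/ILN and 4337 in WT, a ratio of 0.540 (0.513 to 0.569). Among measured genes its level stood at percentile 77.7 in ILN/ILN and 86.5 in WT, so it was well expressed in both. Mmp11, stromelysin 3, which is made by stromal cells, was at 3.76 in ILN/ILN and 4.42 in WT (0.850, 0.740 to 0.977). Mmp10, stromelysin 2, had 0 fragments in ILN/ILN and 4 in WT. Beside the lower Mmp3 and Mmp14, the 6 fibroblast markers summed to 2279 in ILN/ILN and 2123 in WT, with Pdgfra alone lower, at 13.2 in ILN/ILN and 16.4 in WT. Macrophage markers were lower (1291 in ILN/ILN, 1975 in WT). The part of either cell type in the Mmp3 and Mmp14 differences was not tested.

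Mmp27, Mmp28 and Mmp19 stood higher in the ILN/ILN library, and Mmp23 was near equal. Mmp27, a little-studied relative of the stromelysins, was at 4.20 in ILN/ILN and 1.89 in WT, with 300 fragments in ILN/ILN and 145 in WT, a ratio of 2.22 (1.82 to 2.73). Mmp28, which encodes the secreted protease epilysin, was at 10.02 in ILN/ILN and 6.56 in WT, with 961 fragments in ILN/ILN and 676 in WT, a ratio of 1.53 (1.38 to 1.69). Mmp28 passed 1.5-fold in fragments but not on the scale with 1 added. Mmp19, a broadly expressed secreted protease, was at 30.1 in ILN/ILN and 28.1 in WT, and Mmp23, a membrane-tethered protease, at 18.7 in both, with 1152 fragments in ILN/ILN and 1238 in WT. Of these 4 genes, Mmp27 alone was past the threshold.

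On chromosome 9, 10 Mmp genes follow each other with no other protein-coding gene between them in the RefSeq annotation. In chromosomal order they are Mmp13, Mmp12, Mmp1b, Mmp3, Mmp1a, Mmp10, Mmp8, Mmp27, Mmp20 and Mmp7, and of these Mmp3 and Mmp27 alone were measured. Neighbours did not go in the same direction. Mmp12, the macrophage elastase gene, had 59 fragments in ILN/ILN and 10 in WT, a ratio of 6.34 (3.21 to 13.9), opposite to the lower macrophage marker level. Mmp8, the neutrophil collagenase gene, had 0 fragments in ILN/ILN and 61 in WT, and the interval of its ratio ran from 0 to 0.0670. The neutrophil markers lay in the same direction, and their part in the Mmp8 difference was not tested. Mmp13, a collagenase gene, had 6 fragments in ILN/ILN and 2 in WT, and Mmp7, an epithelial matrilysin gene, 3 in ILN/ILN and 0 in WT. The collagenase genes Mmp1a and Mmp1b and the enamel protease gene Mmp20 had none.

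**Figure D3:**
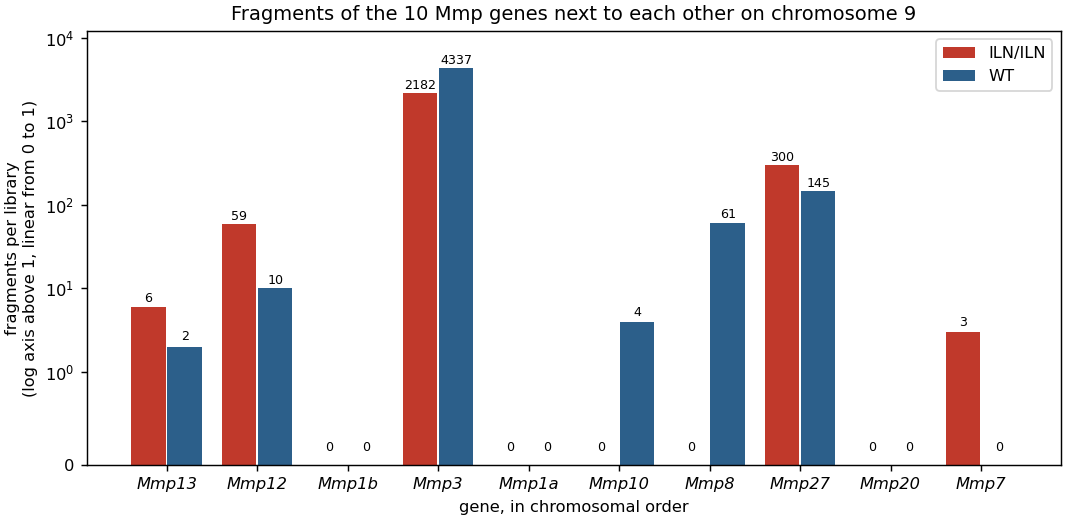
Fragments per library (log axis above 1, linear from 0 to 1) of the 10 adjacent Mmp genes of chromosome 9, in chromosomal order, with ILN/ILN (red) left of WT (blue) and the count above each bar. Mmp3 and Mmp8 were lower and Mmp12 and Mmp27 higher in ILN/ILN, and Mmp1a, Mmp1b and Mmp20 had 0 fragments in both.

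Promoters of these neighbours were compared because several Mmp promoters are known to hold the element bound by AP-1, the Fos and Jun transcription factors. The letters TGANTCA, which read the same on both strands, were searched in the RefSeq windows of GRCm38.p6 that run from 250 bases before to 50 bases after a gene's start. They were found in 8 of the 10 neighbours, all but Mmp8 and Mmp27, and in 6.42% of 9223 measured genes with such a window and 7.81% of all 32851 windows. Examples from genes with high, low and no expression are shown with the element in capitals.
Mmp3: gcaattaTGAGTCAgttttcg
Mmp12: tcaacagTGAGTCAgatagag
Mmp13: aaagtggTGACTCAtcactat
Mmp1a: tcaaccaTGAGTCAcatagcc
All 4 lie on the plus strand, at chr9:7445776-7445782 (Mmp3), chr9:7347330-7347336 (Mmp12), chr9:7272479-7272485 (Mmp13) and chr9:7464068-7464074 (Mmp1a). Mmp3 was lower in ILN/ILN, and Mmp12, under the measured level, had more fragments in ILN/ILN. Mmp1a had no fragment in either library and so shows no direction. Among all 26 measured members with a promoter window, Mmp3 and Adam19 alone held the element. That share, 7.69%, was near the 6.42% of measured genes and the 7.81% of all windows. Mmp3 and Adam19 both stood lower in ILN/ILN, Adam19 without being called, and the part of the element in these differences was not tested.

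The inhibitor genes were all measured. Timp2, whose product inhibits MMPs and also links the MMP2 precursor to MMP14, was the most abundant member per gene length. It was at 285 in ILN/ILN and 248 in WT, with 45826 fragments in ILN/ILN and 42902 in WT, a ratio of 1.15 (1.13 to 1.16). Timp1, an inducible inhibitor that binds the MMP9 precursor, was at 5.88 in ILN/ILN and 10.2 in WT, with 201 fragments in ILN/ILN and 373 in WT, a ratio of 0.579 (0.485 to 0.689). Timp1 was thus the inhibitor gene past the threshold, in the same direction as Mmp9, and the level of Timp1 relative to Mmp9 was 0.478 in ILN/ILN and 0.531 in WT. Timp3, a matrix-bound inhibitor that also blocks ADAM17 and ADAMTS proteases, was at 54.4 in ILN/ILN and 52.2 in WT. Timp4 was at 40.4 in ILN/ILN and 46.1 in WT (0.876, 0.830 to 0.924), and Reck at 5.84 in ILN/ILN and 5.65 in WT. Apart from Timp1, the inhibitor genes thus lay within 1.5-fold of WT.

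Per gene length, the Mmp genes summed to 350.5 in ILN/ILN and 425 in WT, and the inhibitor genes to 391 in ILN/ILN and 362 in WT. The summed inhibitor level was therefore 1.12 times the summed Mmp level in ILN/ILN and 0.852 times in WT. Timp2 alone stood at 6.08 times the level of Mmp14 in ILN/ILN and 2.89 times in WT. These are transcript levels, and enzyme activity was not measured.

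**Figure D4:**
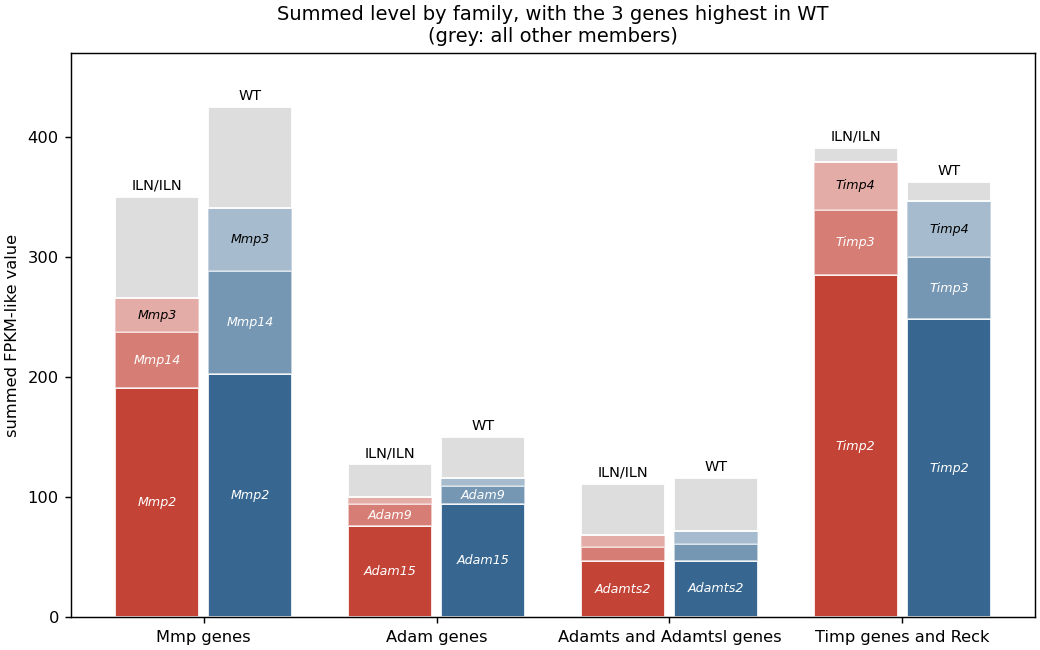
Summed FPKM-like value of each family, with ILN/ILN (red) left of WT (blue), 1 library per genotype; shades mark the 3 genes highest in WT and grey the other members. The Mmp sum was 350.5 in ILN/ILN and 425 in WT, and the inhibitor sum 391 in ILN/ILN and 362 in WT.

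Of 9 ADAM genes grouped here as active proteases, with genes of the reproductive tract set apart, 8 were measured. None passed 1.5-fold on the scale with 1 added. Adam17, which releases tumour necrosis factor and the growth factor amphiregulin, was at 6.06 in ILN/ILN and 6.75 in WT, with 1181 fragments in ILN/ILN and 1413 in WT (0.898, 0.830 to 0.971). Adam10, which cuts Notch receptors, was at 5.98 in ILN/ILN and 5.36 in WT (1.12, 1.03 to 1.21), and Adam9 at 18.1 in ILN/ILN and 15.7 in WT (1.16, 1.10 to 1.22). These sheddase genes lay near equality, Adam17 below WT and the others above. Adam12 and Adam19, known from muscle and heart development, stood lower without being called. Adam12 was at 4.29 in ILN/ILN and 6.23 in WT, with 1475 fragments in ILN/ILN and 2300 in WT (0.689, 0.645 to 0.736). Adam19 was at 4.25 in ILN/ILN and 6.44 in WT, with 1213 fragments in ILN/ILN and 1975 in WT (0.660, 0.614 to 0.709), and passed 1.5-fold in fragments but not on the scale with 1 added. Adam8, a protease gene of leukocytes, was at 3.37 in ILN/ILN and 3.72 in WT (0.907, 0.798 to 1.03), an interval that holds 1. Adam33 was at 3.75 in ILN/ILN and 4.02 in WT (0.934, 0.826 to 1.05), and Adam28, known from lymphocytes, had no fragment in either library.

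Adam15, which encodes an ADAM that binds integrins, was the most abundant ADAM transcript. It was listed at 75.9 in ILN/ILN and 93.8 in WT. In both libraries these values came from the authors' isoform-derived estimate, not from all fragments of the gene, which numbered 6997 in ILN/ILN and 7635 in WT, a ratio of 0.984 (0.953 to 1.02). The summed level of Adam genes was accordingly 0.847 of WT with the deposited values and 0.938 from fragments alone. The same held more strongly for Adam11, a gene of the nervous system. Adam11 was listed at 1.63 in ILN/ILN and 0.560 in WT, yet it had 109 fragments in ILN/ILN and 115 in WT, a ratio of 1.02 (0.776 to 1.33). It was also the one member that counted as measured through a single library.

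ADAM11, ADAM22 and ADAM23 lack an active protease and are known as cell surface binding proteins of neurons. Adam23 was at 2.67 in ILN/ILN and 6.73 in WT, with 312 fragments in ILN/ILN and 844 in WT, a ratio of 0.397 (0.348 to 0.453), the widest gap of the measured members. Adam22 had 58 fragments in ILN/ILN and 50 in WT, a ratio of 1.25 (0.839 to 1.86). The lower level was thus seen in Adam23 and not in the fragments of Adam11 or Adam22. Of 5 nerve markers, the sum was 60.3 in ILN/ILN and 72.1 in WT, with 3 lower and 2 higher, and their part in the Adam23 difference was not tested.

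The other 20 Adam genes are known mainly from testis and other reproductive tissue. None was measured, 13 had no fragment in either library, and the highest count was 35, of Adam1a in ILN/ILN against 19 in WT. Adam1a shares 1805 exon bases with Mapkapk5 on the same strand, so even these fragments are uncertain. Adam3 had 26 fragments in ILN/ILN and 28 in WT.

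Of 7 ADAMTS genes of the proteoglycanase group, whose products cut aggrecan and versican, 4 were measured and did not share a direction. Adamts15 was at 3.64 in ILN/ILN and 7.58 in WT, with 966 fragments in ILN/ILN and 2161 in WT, a ratio of 0.480 (0.445 to 0.518). Adamts5 was at 5.48 in ILN/ILN and 4.23 in WT, with 1988 fragments in ILN/ILN and 1649 in WT (1.29, 1.21 to 1.38). Adamts1 was at 4.40 in ILN/ILN and 3.47 in WT (1.27, 1.15 to 1.39), and Adamts9 at 3.38 in ILN/ILN and 2.75 in WT (1.23, 1.11 to 1.35). Adamts15 was therefore the lower one, while its 3 measured relatives stood above WT in ILN/ILN. Adamts8, next to Adamts15 among the members of chromosome 9, had 38 fragments in ILN/ILN and 13 in WT, a ratio of 3.14 (1.64 to 6.42). Adamts4, an aggrecanase gene, had 22 fragments in ILN/ILN and 32 in WT, and Adamts20 had 3 in ILN/ILN and 14 in WT, with a value not made from them. The versican gene Vcan was at 2.99 in ILN/ILN and 2.97 in WT, and the aggrecan gene Acan had 0 fragments in ILN/ILN and 4 in WT.

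The procollagen N-proteinase genes, whose products trim fibrillar procollagens, were close to equal. Adamts2 was at 46.2 in ILN/ILN and 47.0 in WT, with 7662 fragments in ILN/ILN and 8372 in WT, a ratio of 0.983 (0.953 to 1.01), and made up 41.7% of the summed Adamts level in ILN/ILN and 40.7% in WT. Adamts14 was at 1.49 in both libraries, and Adamts3 had 24 fragments in ILN/ILN and 33 in WT. Adamts12, which cuts cartilage oligomeric matrix protein, was at 10.2 in ILN/ILN and 11.3 in WT (0.897, 0.853 to 0.943), and Adamts10, which acts on fibrillin microfibrils, at 5.17 in ILN/ILN and 5.36 in WT.

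Of the ADAMTS-like genes, whose products lack a protease domain, 4 of 5 were measured and all lay within 1.5-fold. Adamtsl4, needed for the fibrillin fibres that hold the lens, was at 12.3 in ILN/ILN and 13.7 in WT, and Adamtsl5, a fibrillin binder, at 10.1 in ILN/ILN and 8.71 in WT. Adamtsl1 was at 4.67 in ILN/ILN and 5.55 in WT (0.840, 0.787 to 0.896), and Adamtsl3 at 1.29 in ILN/ILN and 1.003 in WT (1.29, 1.11 to 1.49). Adamtsl2, whose product binds fibrillin, had 78 fragments in ILN/ILN and 122 in WT (0.687, 0.510 to 0.920). They differed in direction, 2 above and 2 below 0 among the measured genes.

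Several ADAMTS genes under the measured level had wide fragment ratios. Adamts16 had 17 fragments in ILN/ILN and 206 in WT, a ratio of 0.0886 (0.0506 to 0.145), at values of 0.077 in ILN/ILN and 0.864 in WT. It missed the minimum of 1 in WT by little and was the widest gap of any member with at least 10 fragments in both libraries. Adamts18 had 20 fragments in ILN/ILN and 47 in WT (0.457, 0.257 to 0.786), and Adamts7, which cuts the same cartilage protein as Adamts12, had 235 in ILN/ILN and 171 in WT (1.48, 1.21 to 1.81). Luminal epithelial markers had an ILN/ILN sum of 0.752 and a WT sum of 40.0, and their part in the Adamts16 and Adamts18 ratios was not tested. Adamts6, Adamts17 and Adamts19 had intervals that hold 1, and Adamts13, the protease of von Willebrand factor, had 0 fragments in ILN/ILN and 4 in WT.

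**Figure D5:**
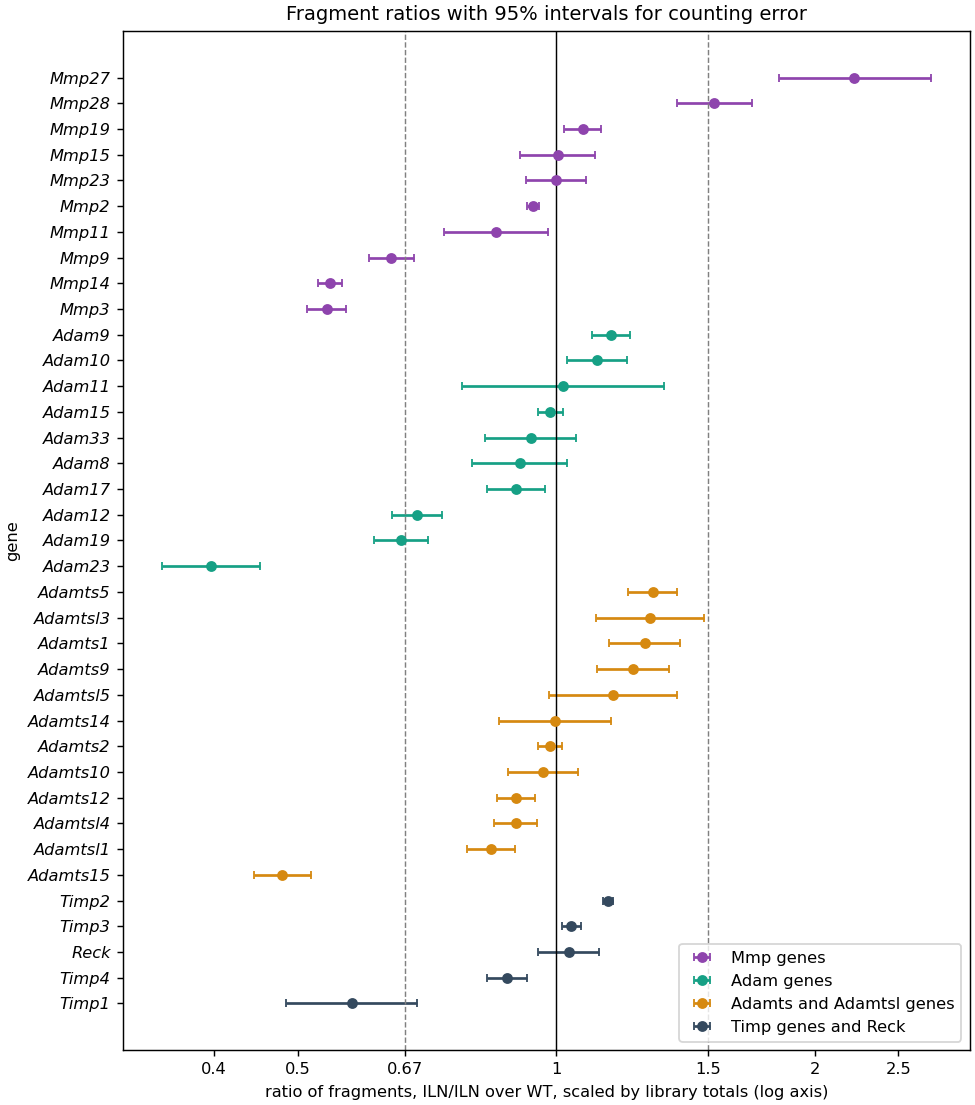
Ratio of fragments, ILN/ILN over WT, scaled by library totals (log axis), for the 37 measured genes, coloured by family. Bars are exact 95% intervals for counting error alone, the solid line marks 1 and the dashed lines 1.5-fold. Intervals lay below 1 for 15 genes, above 1 for 11 and held 1 for 11, Adam11 and Adam15 among the last. Such intervals can leave out 1 at small differences, as for Mmp2 at 0.939. The same counts over all measured genes were not made, so these have no comparison.

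A list of 52 genes that act with these proteases was set beside them, and 33 were measured. Of these 1 was called lower, where 5.39% of all measured genes were, and none higher, where 1.90% were. The lower one was Areg, which encodes amphiregulin, the epithelial growth factor released by ADAM17, with 0 fragments in ILN/ILN and 56 in WT. Luminal markers, from the cells that make Areg, were lower too, and their part in it was not tested. Tspan10, a tetraspanin gene of the group that guides ADAM10, had 3 fragments in ILN/ILN and 69 in WT and was under the measured level. Its relative Tspan15 was at 8.24 in ILN/ILN and 5.51 in WT, with 1314 fragments in ILN/ILN and 944 in WT.

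Most of the listed genes lay near equality, with a median log2 ratio of -0.01. Serpine2, an inhibitor of plasminogen activators, was at 27.3 in ILN/ILN and 19.1 in WT, and Plaur, the urokinase receptor gene, at 2.06 in ILN/ILN and 3.23 in WT. Pcolce, an enhancer of procollagen processing, was at 145 in ILN/ILN and 201 in WT, while its relative Pcolce2 was at 79.0 in ILN/ILN and 60.7 in WT. The enhancers thus stood in opposite directions, neither past 1.5-fold. Cst3, a cysteine protease inhibitor, was at 1528 in ILN/ILN and 2045 in WT. Bsg, which encodes an inducer of MMPs, was at 335 in ILN/ILN and 354 in WT, and Lrp1, an endocytic receptor that clears proteases with their inhibitors, at 77.8 in ILN/ILN and 66.3 in WT. Comp, a substrate of Adamts7 and Adamts12, was at 1.48 in ILN/ILN and 0.764 in WT, with 159 fragments in ILN/ILN and 88 in WT.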

How the data were processed

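TopHat 1.4.1, Bowtie 0.12.3, bedtools and the build mm9 are listed, per the submitters' processing notes, without their roles. The protocol in the labels marks strand with dUTP. The table-making program and its use of strand were not given in the sources used here. Per the file headers, the authors deposited an FPKM-like value and its log2(value + 1) for 21113 genes. They also deposited a signal per kilobase, the larger of an original and an isoform-derived estimate. The original estimate times gene length gave whole numbers within 0.01, called fragments, which may be reads or pairs. Deposited values equal the signal divided by 45.2 (ILN/ILN) or 48.6 (WT).

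Calls, ratios and intervals were computed with Python 3.11.15, numpy 2.4.6, pandas 2.3.3 and scipy 1.17.1, and were tested on simulated data. The simulated data held counting error alone and planted changes wider than 1.5-fold. They held no differences between animals or dissections, so they check the computation and not the calls made here. With 1 library per genotype there was no test. Of the alternatives, the pseudocount, minimum, fold, estimate and scaling were varied. By plan, measured members could be named, with fragments for those at 5 or more or past 1.5-fold. Members under 1 in both libraries were to be given by count and range or as a role group. Of the 52 partners, the 8 with the widest ratios and those at 50 or more could be named. Further genes (Vcan, Acan, and single members under these limits, such as Mmp8, Mmp12, Adamts8, Adamts16 and Adamts18) were named after their values were seen. Members and lists were chosen with earlier results of these data known. Sequences and exon overlaps come from RefSeq and GENCODE on GRCm38, and all 84 members matched RefSeq.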

Additional observations from a re-analysis of the deposited data

How the results depend on the processing

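No paired analysis was possible because each genotype had 1 library. The count of 6 members called lower was 3 with a pseudocount of 5 and 1 (Adam23) at a 2-fold threshold. It lay between 6 and 8 under the other alternatives. The share of all genes called lower moved too, from 5.39% to 1.95% with a pseudocount of 5 and 1.72% at 2-fold. Under the other alternatives that share ran from 3.2% with no minimum to 7.68% with a pseudocount of 0.1. With a pseudocount of 5 the remaining genes were Mmp14, Mmp3 and Adam23, and with no minimum Adamts16 and Mmp8 were added. The count of 2 called higher was 1 from fragments alone, without Adam11, and 0 with a pseudocount of 5, with a minimum of 5 or at 2-fold. The share of all genes called higher was 1.41% from fragments alone and 0.58% with a pseudocount of 5. With a minimum of 5 it was 1.79%, and at 2-fold 0.407%. The median log2 ratio of measured members ranged from -0.13 with a minimum of 5 to 0 with no minimum. Scaling by the median ratio or the upper quartile kept all 8 calls. Their factors were 1.012 and 1.010, too close to 1 to bring any of the 8 across the threshold. Of the other values recomputed, 231 moved by less than their counting error or 1.5 times, 24 by more, and none that was called reversed. Part of the 231 could not move, so their number does not measure stability. Family sums took no pseudocount, and members whose values came from fragments kept them under fragments alone. Depth limits genes with few fragments, such as Mmp13 and Adamts20, and the single library per genotype limits every difference given.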
